A study of Homo sapiens with 5 samples.

Results

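Pyruvate was added to human embryonic stem cells that were being driven toward mesoderm with BMP4, and the transcripts of these cells after 2 days were set against those of cells given BMP4 without added pyruvate. The cells were H1, an established human embryonic stem cell line, grown on Matrigel in E8, a chemically defined medium. In both cultures BMP4 was added to E8 for 2 days, at a dose the labels do not give, and 1 of them also received 16 mM pyruvate. Genes were compared if at least 1 of their probes was detected on either array, at a detection p-value under 0.01, which left 11230 of the 20041 genes with a named probe. The series holds 3 further arrays, of E8 alone and of E8 with 16 mM pyruvate at day 2, and of E8 with BMP4 and 16 mM pyruvate at day 6, and their values are given beside those of the pair. Each condition was measured on 1 Illumina expression BeadChip, so the differences between arrays carry no replicate error, and no test was possible.

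BMP4 is a secreted growth factor of the TGF-beta family that acts through SMAD proteins. In the mammalian embryo it induces WNT3 at the edge of the epiblast, WNT3 and its downstream effector beta-catenin raise NODAL, and the 3 signals together form the primitive streak, the band through which epiblast cells leave to become mesoderm and endoderm. The streak is marked by the T-box factors TBXT and EOMES and the homeobox factor MIXL1. Pyruvate is the end product of glycolysis. It can enter the mitochondrion to feed the citric acid cycle or be turned into lactate in the cytosol, and the title of the study relates it to mesoderm differentiation and to the energy sensor AMPK and the growth regulator mTOR.

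Signals were corrected for background, quantile normalized over the 5 arrays and put on a log2 scale, and all levels and differences below are on that scale unless a fold is named. The call of higher or lower required at least a 2-fold difference, 1 on this scale, and detection of the probe on the brighter array. By this rule of size 417 genes were higher with pyruvate added to BMP4 (3.71% of those compared) and 343 were lower (3.05%). Among the 10114 genes detected on both arrays, 231 were higher (2.28%) and 251 lower (2.48%). Another 814 genes were detected only on the BMP4 plus pyruvate array of the pair and 302 only on the BMP4 array. Before normalization the BMP4 array was the dimmer of the pair, with a median intensity of 146 against 164. It detected 16779 probes against 17918. The part of this in the split of 814 and 302 was not tested, and raw intensities given below carry it. The median difference over all genes was -0.02, and 68.5% of them lay within 0.5 of 0. Only 28 genes were higher by 2 or more and 11 lower by 2 or more. The split between directions depended on the scaling: with the arrays aligned at the 75th percentile of all probes, a setting chosen after the data were seen, the median gene shifted to -0.14 and the counts became 256 higher and 503 lower.

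The array of BMP4 plus pyruvate stood apart from the other 3 of day 2, and as it is an arm of the pair no result can be given without it. Of the 417 higher genes, 316 (75.8%) lay at least 0.5 above E8, pyruvate and BMP4 alike on that array, while in 64 (15.3%) it was the BMP4 array that lay at least 0.5 below the rest. Of the 343 lower genes, 258 (75.2%) lay at least 0.5 below the other 3 on the BMP4 plus pyruvate array. The middle 50% of differences spanned 0.58 in this pair, against 0.39 for pyruvate against E8 and 0.37 for BMP4 against E8. The SD of the disagreement between the 2 detected probes of a gene was 0.537 over 2070 genes, against 0.326 and 0.318. Of 10 detected genes annotated as snRNA, whose RNA carries no poly(A) tail, 5 were lower on it and 0 higher, as given further below. Of all genes 3.05% were lower, and some of these snRNA genes are near copies of one another. The part of these array properties in the results was not tested. Markers of the labelled cell type were detected on both arrays, with POU5F1 at 12.37 with BMP4 and 12.67 with BMP4 plus pyruvate, NANOG at 10.44 and 10.32, and LIN28A at 13.38 and 12.64. Of 23 detected pluripotency genes, however, SOX2 (-2.05) and USP44 (-1.39) were lower on the BMP4 plus pyruvate array and 0 were higher. Of all genes 3.05% were lower and 3.71% higher. In RNA from a whole culture, fewer cells of a type and less RNA per cell cannot be told apart.

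**Figure D1:**
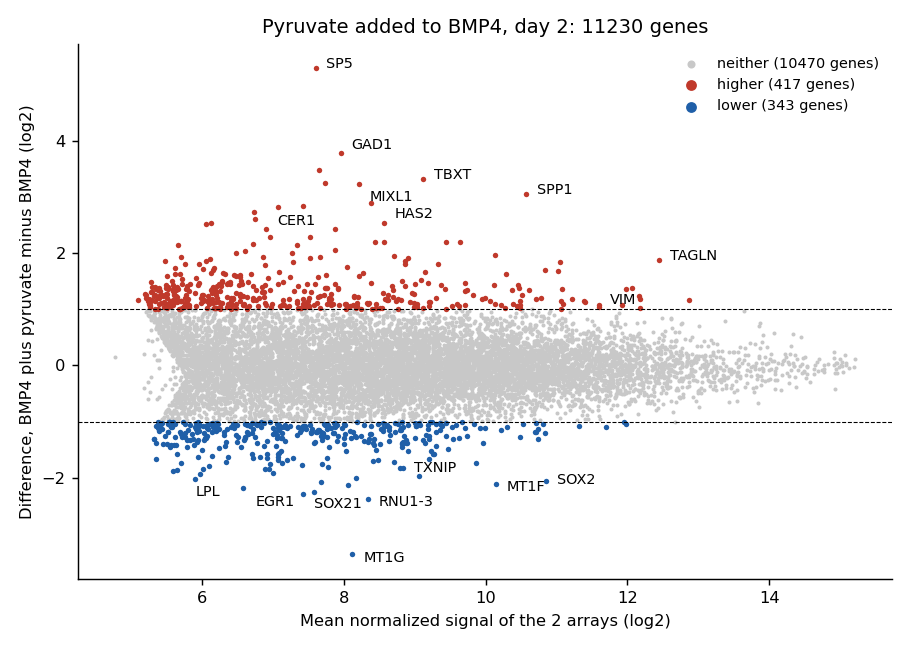
Each point is 1 of the 11230 genes, placed by its mean log2 level over the 2 arrays (horizontal axis) and by the log2 difference of BMP4 plus pyruvate minus BMP4 at day 2 (vertical axis). Dashed lines mark the size rule of 1, and points can hide one another. The 417 higher and 343 lower genes lie mostly at low and middle levels.

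Calls were more frequent among dim genes. Of genes detected on both arrays, ranked by mean level and cut into 4 groups of equal size, 6.17% were called in the dimmest group and 7.12% in the next, against 3.76% and 2.02% in the brighter groups. Where a gene was detected with no probe on the dimmer array, its fold is given as "at least". For that bound the dim level was taken as the probe's own or, if that was lower, as the dimmest detected probe of the same array (5.88 for BMP4, 5.67 for BMP4 plus pyruvate).

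The transcription factors of the primitive streak were higher when pyruvate accompanied BMP4. TBXT, the T-box factor Brachyury that defines nascent mesoderm, was not detected in E8 (4.88) or pyruvate (5.29), read 7.46 with BMP4 and 10.78 with BMP4 plus pyruvate, and 8.49 at day 6. The raw intensity of its probe was 253 with BMP4 and 2049.98 with BMP4 plus pyruvate, the normalized level was 9.93-fold higher, and a second probe differed by 3.55. MIXL1, the Mix-like homeobox factor of the streak, was undetected in E8 and pyruvate and read 6.60 with BMP4, 9.82 with BMP4 plus pyruvate and 8.78 at day 6. It was 9.34-fold higher with pyruvate in the pair. For both genes the BMP4 plus pyruvate array at day 2 was the brightest of the 5. EOMES, a T-box factor needed for exit from the epiblast and for endoderm, was already high with BMP4 (11.30, against 5.11 in E8 and 5.24 in pyruvate, both undetected) and stood at 12.66 with BMP4 plus pyruvate and 13.07 at day 6, a 2.56-fold difference in the pair.

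SP5, a zinc finger factor and direct target of WNT and beta-catenin signalling, had the largest bound of any gene. It was undetected in E8 (4.55), pyruvate (4.65) and BMP4 (4.96), and read 10.24 with BMP4 plus pyruvate and 10.47 at day 6. It was at least 20.6-fold higher with pyruvate in the pair, with raw intensities of 142 and 1476. CDX1 and CDX2, caudal homeobox factors of the posterior embryo, were at least 1.43-fold and 1.10-fold higher, as only the second array of the pair detected them. MESP1, a basic helix-loop-helix factor of early cardiac mesoderm, read 5.64 and 7.11 in the pair, undetected on the first, and was at least 2.34-fold higher. The promoter of SP5 is shown because this gene had that largest bound and because beta-catenin works through TCF and LEF factors. The sequence runs from 250 bases before to 50 after the RefSeq start on the plus strand of GRCh38.p14, chr2:170715087-170715386, and capitals mark the TCF and LEF core (CTTTG followed by AA, AT, TA or TT, on either strand).
SP5: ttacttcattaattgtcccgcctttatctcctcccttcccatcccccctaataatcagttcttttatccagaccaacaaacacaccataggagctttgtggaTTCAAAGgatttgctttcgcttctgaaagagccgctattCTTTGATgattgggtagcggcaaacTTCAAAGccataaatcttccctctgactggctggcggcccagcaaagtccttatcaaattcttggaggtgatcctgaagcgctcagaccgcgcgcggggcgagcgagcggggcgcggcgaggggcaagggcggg
The window held 3 such cores. A core was found in 13.9% of the 27305 promoters of the RefSeq table and in 8.14% of the 9103 promoters matched to a compared gene. Among 309 higher genes the share was 8.41%. Among the 10 detected streak genes with a promoter in the table, 4 had one (SP5, MIXL1, CDX2 and WNT3). A match is a run of letters, not a bound site.

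Secreted factors of the streak were higher as well. NODAL read 9.47 in E8, 10.73 in pyruvate, 10.18 in BMP4, 11.85 in BMP4 plus pyruvate and 8.24 at day 6, and was 3.19-fold higher in the pair. WNT3, the ligand that starts the streak, read 5.64, 6.68, 8.31, 9.97 and 8.41 in the same order and was 3.15-fold higher. WNT5B, a ligand of cell movement in gastrulation, read 6.15, 5.91 (undetected), 5.90, 7.82 and 9.11, a 3.80-fold difference in the pair. NODAL and WNT3 were at their highest of the 5 arrays with BMP4 plus pyruvate at day 2, whereas WNT5B was higher still at day 6. FGF8, which streak cells need in order to migrate in the mouse, was 2.68-fold higher (6.65 and 8.07) with a second probe at a difference of 1.57. FGF17, of the same subfamily, was undetected with BMP4 (5.65) and read 7.26 with pyruvate added, at least 2.59-fold. APLNR, the apelin receptor of early mesoderm, was undetected with BMP4 (5.38), read 6.63 with pyruvate added, at least 1.68-fold, and reached 13.02 at day 6. CYP26A1, an enzyme that clears retinoic acid, ran the other way within the list, at 7.29 and 6.25.

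Of 26 streak genes listed, 15 were detected on either array. Of the 15, 14 were higher and 1, CYP26A1, lower, against 3.71% and 3.05% of all genes. Their median difference was 1.65 (1.42 with bounds in place of undetected values). Of these, 6 entered only through detection on the BMP4 plus pyruvate array. Among the 9 detected on both, 8 were higher and 1 lower, and their median was 1.67, against -0.02 for all genes. The 11 undetected members included GSC, LHX1, FOXA2, TBX6, MSGN1, EVX1, MESP2 and WNT3A. The list was drawn up with earlier results of these data known, so its counts are a description.

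**Figure D2:**
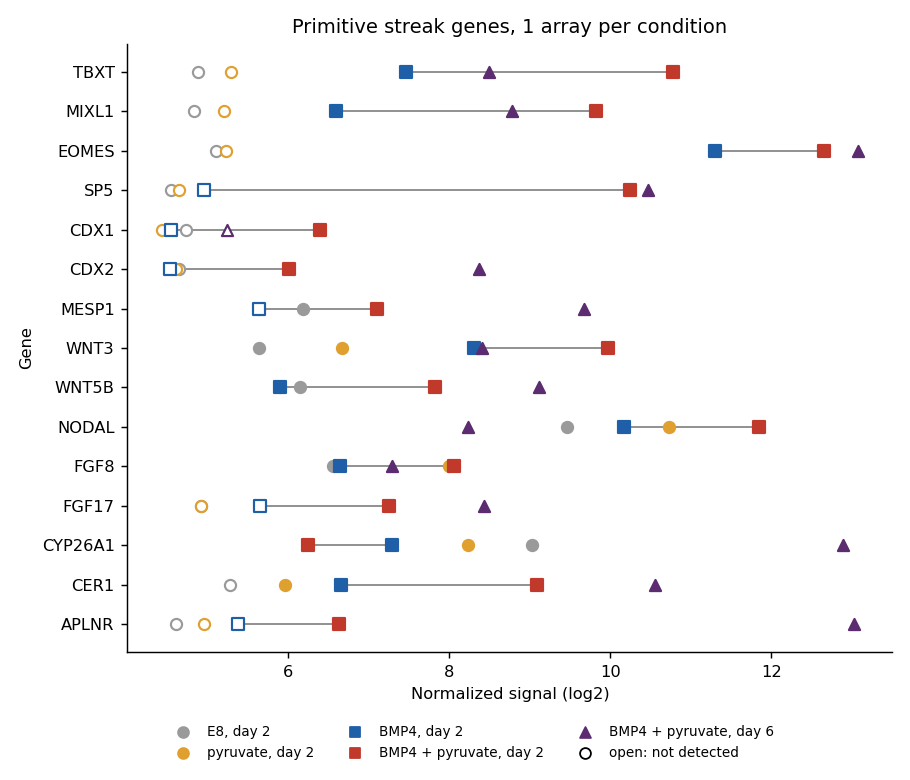
Normalized signal on the log2 scale (horizontal axis) of the 15 detected primitive streak genes (vertical axis), 1 point per array, with colours for the 5 arrays, open points where undetected and a line joining the pair; points may overlap. At day 2 TBXT stands at 7.46 with BMP4 and 10.78 with BMP4 plus pyruvate, and SP5 at 4.96 and 10.24.

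WNT signalling genes other than the ligands differed unequally. DACT1, which binds Dishevelled, read 6.11 with BMP4 and 9.36 with BMP4 plus pyruvate, a 9.50-fold difference, and its second probe differed by 3.79. WLS, the carrier that takes WNT proteins to the cell surface, read 8.34 and 10.54 and was 4.59-fold higher, and its 3 further probes differed by up to 2.63, each past the size rule. APCDD1, a membrane inhibitor of WNT, read 7.73 and 9.68 and was 3.85-fold higher. These genes were named by the size of their difference and not by the WNT list. On that list, NKD1, a feedback inhibitor that binds Dishevelled, was undetected with BMP4 (5.44), read 8.04 with pyruvate added and was at least 4.47-fold higher. LEF1, the DNA-binding partner of beta-catenin, read 6.35 and 8.20 and was 3.60-fold higher, though a second probe differed by 0.53. ROR2, a receptor for WNT5A, read 8.63 and 9.76, 2.19-fold higher. AXIN2, the most used feedback target of the pathway, read 9.85 and 9.95 and was not called. SFRP1, a secreted WNT antagonist, was lower, at 9.82 and 8.58 (2.37-fold). Of all, 6 of 35 detected members of the WNT list were higher (17.1%, against 3.71% of all genes) and 1 lower (median 0.33). Among its 31 members detected on both arrays, 4 were higher (against 2.28% of all such genes) and 1 lower (median 0.21). Of the 6 higher members, 4 (SP5, WNT3, WNT5B and LEF1) also stand on the streak or mesoderm lists.

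Of NODAL pathway genes 4 of 10 were higher and of BMP targets and feedback genes 3 of 16 (18.8%), against 3.71% of all genes compared. CER1, a secreted inhibitor of NODAL, BMP and WNT, read 6.66 with BMP4 and 9.09 with BMP4 plus pyruvate (5.38-fold), with 3.13 on a second probe. FST, or follistatin, which binds activins, read 8.98 and 10.45 (2.78-fold), with 1.06 on a second probe. LEFTY2 read 6.74 and 7.68 and LEFTY1 9.81 and 9.22, so these NODAL inhibitors were not called. The median of the NODAL list, with NODAL and EOMES as its other higher members, was 0.88 and 0 were lower. Several BMP targets were not called. ID1 read 12.86 and 13.30, ID2 11.64 and 11.56, BAMBI 13.56 and 13.55, and SMAD6 differed by -0.39. MSX1, FST and GREM1 were the higher members of the BMP list, with 0 lower and a median of 0.13. BMP2, a ligand close to BMP4, was undetected with BMP4 (5.59), read 7.63 with pyruvate added and 11.31 at day 6, and was at least 3.36-fold higher.

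Actin and smooth muscle genes formed the second large group of higher transcripts. TAGLN, the actin-binding protein transgelin of smooth muscle, read 9.96 in E8, 9.69 in pyruvate, 11.51 in BMP4, 13.38 in BMP4 plus pyruvate and 12.20 at day 6. It was 3.66-fold higher in the pair, with 2.54 on a second probe. ACTC1, cardiac alpha-actin, read 6.68, 6.31, 8.54, 10.73 and 13.96 in the same order, 4.59-fold higher in the pair, and was the highest at day 6. ACTA1, skeletal alpha-actin, read 7.47 with BMP4 and 9.67 with BMP4 plus pyruvate and was 4.60-fold higher, while the other 3 arrays did not exceed 8.03. MYL9, a regulatory myosin light chain of smooth muscle and non-muscle cells, read 7.34 and 9.54 in the pair (4.60-fold), and CNN1, calponin, read 6.56 and 8.47 (3.75-fold). ACTG2, the enteric smooth muscle actin, read 6.87 and 8.32, 2.74-fold higher. CSRP1, a LIM protein of the actin cytoskeleton, read 8.43 and 10.23 (3.49-fold). TPM2 and TAGLN2 differed by 1.14 and 1.36. ACTA2, smooth muscle alpha-actin, and MYL7, the atrial myosin light chain, were undetected with BMP4 alone and at least 1.97-fold and 1.73-fold higher.

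Widely expressed genes of the actin cytoskeleton differed less. TPM1 read 12.50 and 12.62, with further probes from -1.51 to 0.09, MYH9 12.94 and 13.00, CALD1 12.38 and 12.97, and ACTB 14.80 and 15.04, and none was called. The contractile list had 17 detected genes of 26. Of the 17, 11 were higher (against 3.71% of all genes) and 1 lower, at a median of 1.46 (1.14 with bounds). Of the 14 detected on both arrays, 9 were higher and 0 lower. TNNI3, cardiac troponin I, was the gene that was lower, detected with BMP4 (6.53) and not with BMP4 plus pyruvate (5.21), at least 1.81-fold. Sarcomere genes that define cardiac muscle, MYH6, MYH7, TNNT2, TTN and DES, were detected on neither array of the pair. Actin genes share long stretches of coding sequence, so a probe may read more than 1 of them.

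The serum response factor binds the CArG box, and promoters of 3 actin genes that were higher are shown for that reason, as RefSeq gives them for GRCh38.p14, each 5′ to 3′ on the gene's strand with the box in capitals. They are ACTA1 (chr1:229434045-229434344, minus strand), ACTC1 (chr15:34795500-34795799, minus strand) and ACTG2 (chr2:73892758-73893057, plus strand).
ACTA1: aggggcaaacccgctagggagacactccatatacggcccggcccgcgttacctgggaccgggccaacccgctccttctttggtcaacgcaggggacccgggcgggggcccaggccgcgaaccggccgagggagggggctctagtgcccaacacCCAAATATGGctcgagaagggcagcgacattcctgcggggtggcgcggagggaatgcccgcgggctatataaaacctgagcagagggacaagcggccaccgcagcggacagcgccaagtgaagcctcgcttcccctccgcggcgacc
ACTC1: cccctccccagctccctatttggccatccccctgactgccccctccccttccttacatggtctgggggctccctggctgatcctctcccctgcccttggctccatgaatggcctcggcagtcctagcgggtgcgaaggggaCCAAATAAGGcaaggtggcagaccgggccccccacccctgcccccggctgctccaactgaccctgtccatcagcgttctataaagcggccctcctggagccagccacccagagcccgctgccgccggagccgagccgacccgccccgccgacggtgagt
ACTG2: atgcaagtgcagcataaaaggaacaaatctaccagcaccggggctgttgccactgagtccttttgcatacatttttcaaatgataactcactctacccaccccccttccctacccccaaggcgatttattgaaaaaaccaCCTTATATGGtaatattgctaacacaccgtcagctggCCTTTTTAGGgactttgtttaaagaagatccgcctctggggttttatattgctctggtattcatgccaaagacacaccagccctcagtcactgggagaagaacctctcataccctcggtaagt
The window of ACTG2 held 2 boxes and those of ACTA1 and ACTC1 held 1 each. A CArG box, searched on both strands, lay in 1.29% of all promoters of the table and 1.18% of those of compared genes. It lay in 5 of the 15 detected contractile genes with a promoter in the table, 4 of them among the 9 that were higher, and in 11 of 309 higher genes (3.56%) and 5 of 254 lower genes (1.97%). These matches are a description of letters.

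**Figure D3:**
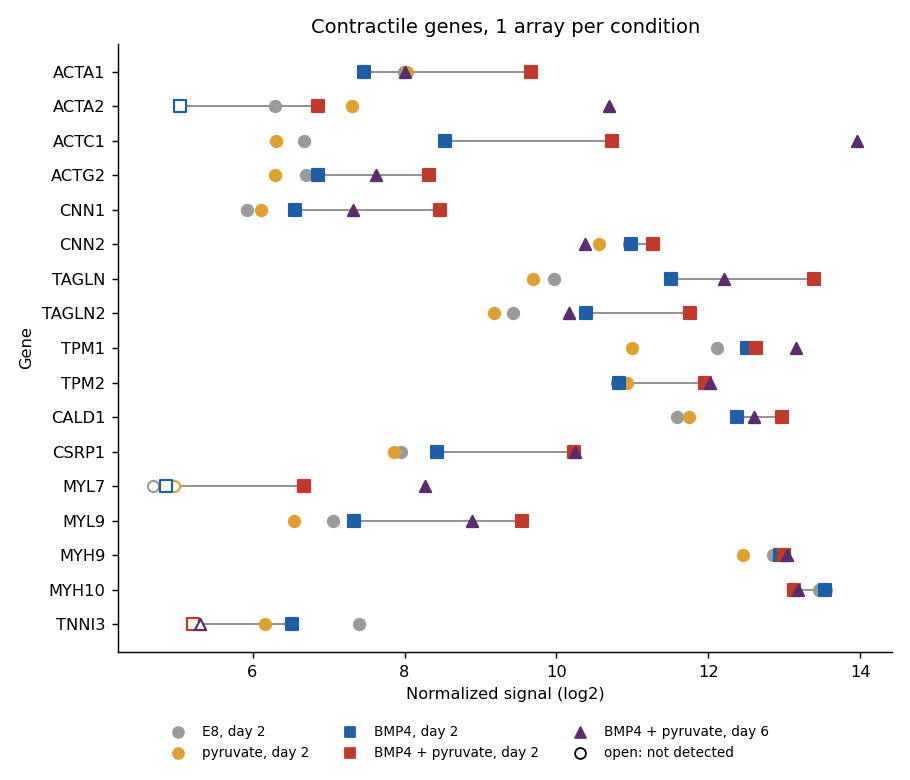
Normalized signal on the log2 scale (horizontal axis) of the 17 detected contractile genes (vertical axis), marked as for the streak genes; points may overlap. TAGLN goes from 11.51 with BMP4 to 13.38 with BMP4 plus pyruvate at day 2, ACTA1 is at its highest on that array, and ACTC1 is at its highest at day 6.

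Later mesoderm markers were split. MSX1, a homeobox factor induced by BMP, read 6.38 with BMP4, 8.66 with BMP4 plus pyruvate and 14.04 at day 6, and was 4.85-fold higher in the pair. TWIST1, a helix-loop-helix factor of mesenchyme, and GATA6, a zinc finger factor of heart and endoderm, were undetected with BMP4 and at least 3.79-fold and 1.33-fold higher. HAND1, a factor of extraembryonic and lateral mesoderm, read 9.87 and 9.89, and MSX2 9.15 and 9.39. The lateral and cardiac list had 4 of 12 detected members higher (against 3.71% of all genes) and 0 lower, with a median of 0.60. Among its 9 members detected on both arrays, 2 were higher. Of 6 detected presomitic genes 0 were higher and 2 lower, against 3.05% of all genes. Their median of -0.96 was -0.46 without background correction, where 1 was lower, and -0.17 with undetected genes included. DLL1, a Notch ligand of the segmenting mesoderm and of neural progenitors, read 10.21 and 8.72, 2.81-fold lower. FOXC2, a forkhead factor, was detected with BMP4 (6.75) and not with BMP4 plus pyruvate (5.25), at least 2.11-fold lower.

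Matrix and surface genes that accompany migrating mesoderm were higher in part. HAS2, which makes hyaluronan, read 6.31 in E8, 8.25 in pyruvate, 7.30 in BMP4, 9.83 in BMP4 plus pyruvate and 12.32 at day 6. It was 5.76-fold higher in the pair, with 1.30 on a second probe. CD44, the hyaluronan receptor, was undetected with BMP4 (5.37), read 8.10 with pyruvate added and was at least 4.64-fold higher, with a second probe at 0.63. TIMP3 and TIMP4, inhibitors of matrix metalloproteinases, were higher too, TIMP3 at least 2.16-fold and TIMP4 2.73-fold. The hyaluronan list had 5 of 10 detected members higher and 0 lower, with a median of 0.89, against 3.71% of all genes higher. Among its 8 members detected on both arrays, 3 were higher. VIM, the intermediate filament of mesenchyme, read 11.08 and 12.12 (2.05-fold), with 1.28 on a second probe. CDH1, epithelial cadherin, read 12.92 and 13.09, and CDH2, neural cadherin, 11.05 and 11.02, so neither cadherin was called. COL6A1, COL1A1 and ITGA5, a collagen VI and a collagen I chain and the fibronectin receptor subunit, differed by 1.37, 1.07 and 1.22, whereas 39 of 42 detected matrix and integrin genes were not called.

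Some of the largest differences fell outside these groups. GAD1, which makes GABA from glutamate, read 5.46 in E8 (undetected), 6.15 in pyruvate, 6.06 in BMP4, 9.85 in BMP4 plus pyruvate and 11.25 at day 6. It was 13.8-fold higher in the pair, the largest difference of the genes detected on both arrays, with 2.44 and 4.13 on further probes. GLIPR1L1, of the CAP protein family, read 5.92 and 9.39 in the pair (11.1-fold) and was undetected at day 6 (4.78). SPP1, the secreted phosphoprotein osteopontin, read 9.30, 10.56, 9.05, 12.10 and 9.86 over the 5 arrays and was 8.30-fold higher, with 3.51 on a second probe. For SPP1 and GLIPR1L1 the BMP4 plus pyruvate array of day 2 was the brightest of the 5, while GAD1 was brighter at day 6. ATP12A, a proton and potassium pump, read 6.94 and 9.83 (7.44-fold), and FOXQ1, a forkhead factor, 6.00 and 8.84 (7.19-fold). CAV1 and CAV2, which build caveolae, were 3.24-fold and 4.13-fold higher, although further probes of CAV2 differed by 0.76 and 0.17. MYOF, a ferlin of membrane repair, read 6.69 and 8.62, with 2.56 and 1.96 on further probes. FILIP1L, NPY and CXCL14, a filamin-interacting protein, a neuropeptide and a chemokine, were undetected with BMP4 and at least 6.06-fold, 4.70-fold and 4.67-fold higher.

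SOX2 and USP44 were the pluripotency genes called, both lower, of 23 detected (8.70%, against 3.05% of all genes). The differences of the list ran from -2.05 to 0.98, and 7 were above 0. SOX2 read 12.64 in E8, 12.53 in pyruvate, 11.88 in BMP4 and 9.83 in BMP4 plus pyruvate, and was undetected at day 6 (5.26). It was 4.14-fold lower in the pair, with raw intensities of 3163 and 1157, and a second probe differed by -1.25. POU5F1 and NANOG, the other core factors, differed by 0.30 and -0.12. DPPA4, LIN28A, L1TD1 and ZFP42 differed by -0.79, -0.75, -0.17 and 0.11. USP44, a deubiquitinase of stem cells, read 9.20 and 7.81 and was 2.62-fold lower, with -0.97 on a second probe. The median of the list was -0.17.

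Among 9 detected neuroectoderm genes SOX21 was lower and NES and POU3F1 were higher, with a median of -0.38. Of all genes 3.71% were higher and 3.05% lower. Among the 7 neuroectoderm genes detected on both arrays, 1 was higher and 1 lower. SOX21, a SOX factor of neural progenitors, read 11.12, 10.55, 8.57 and 6.29 on the E8, pyruvate, BMP4 and BMP4 plus pyruvate arrays, was undetected at day 6, and was 4.87-fold lower in the pair. The related SOX3 read 9.28 and 8.90 and ZIC2 13.29 and 13.41. MIR124-1HG and MIR124-2HG, host genes of the neural microRNA miR-124, were 2.44-fold and 3.33-fold lower. These host genes are not on the list and were named by size. NES, the intermediate filament nestin of neural and other progenitors, read 10.62 and 11.80, and POU3F1, a POU factor, was detected only with pyruvate added of the pair, at least 1.26-fold higher.

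**Figure D4:**
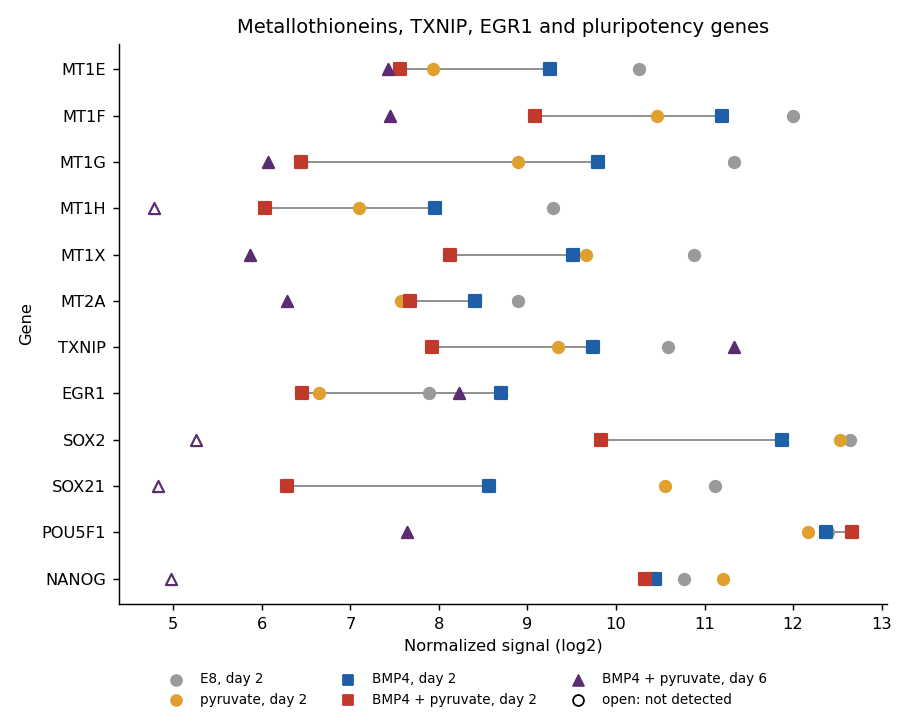
Normalized signal on the log2 scale (horizontal axis) of metallothioneins, TXNIP, EGR1, SOX2, SOX21, POU5F1 and NANOG (vertical axis), marked as for the streak genes; points may overlap. SOX2 goes from 11.88 to 9.83 and MT1G from 9.80 to 6.44 between the BMP4 and the BMP4 plus pyruvate arrays of day 2.

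Markers of other lineages were few or level. SOX17, the SOX factor of definitive endoderm and germ cells, was undetected with BMP4 (5.73), read 7.34 with pyruvate added and was at least 2.74-fold higher, whereas FOXA2 was not detected on either array. KIT, a receptor of germ cells and endoderm, read 10.07 and 8.98. Over 8 detected endoderm genes 3 were higher (SOX17, CER1 and GATA6) and 1 lower (KIT), and the median was 0.50, or 0.06 with bounds. Among the 5 detected on both arrays 1 was higher and 1 lower, and their median was -0.49. Of all genes 3.71% were higher and 3.05% lower. Among 11 detected genes of trophoblast and amnion, CDX2 was higher and 0 were lower. TFAP2A, a factor of surface ectoderm and amnion, read 4.67 in E8 and 4.64 in pyruvate, both undetected, and 11.39 with BMP4 and 11.19 with BMP4 plus pyruvate. GATA3, KRT7 and CGA were detected on neither array. None of the 5 detected neural crest genes and none of 6 endothelial or blood progenitor genes was called. KDR, the VEGF receptor, differed by 0.68, and TAL1, ETV2, CDH5, PECAM1 and CD34 were undetected on both arrays.

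Metallothioneins, small cysteine-rich proteins that bind zinc and copper and are induced by metals through the factor MTF1, were lower. MT1G read 11.34 in E8, 8.89 in pyruvate, 9.80 in BMP4, 6.44 in BMP4 plus pyruvate and 6.07 at day 6. It was 10.3-fold lower in the pair, the largest difference in that direction, with raw intensities of 810 and 234. MT1E read 10.26, 7.94, 9.25, 7.56 and 7.43 in the same order (3.24-fold lower), and MT1H read 9.28, 7.10, 7.95 and 6.04 and was undetected at day 6 (3.77-fold lower). On all 3 genes the order of the day-2 arrays was the same, with E8 highest, then BMP4, then pyruvate, then both. MT1F and MT1X were 4.33-fold and 2.61-fold lower. MT2A read 8.40 and 7.67 and was not called. The 6 detected metallothioneins had a median of -1.81 and 5 were lower, against 3.05% of all genes. The genes of this family are near copies of one another, so their probes may share signal and do not count as separate measurements. MTF1 itself read 8.51 and 8.71, and SLC30A1, a zinc exporter that MTF1 also controls, 7.30 and 6.98. Of the zinc transporters, SLC39A14 was 2.38-fold higher and SLC39A10 2.48-fold lower.

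MTF1 binds metal response elements, and the promoters of MT1H and MT1X are shown because their genes were lower and their windows were dense in the core of this element (TGCACNC or TGCGCNC, either strand, in capitals). RefSeq places them on the plus strand of GRCh38.p14 at chr16:56669564-56669863 and chr16:56682220-56682519.
MT1H: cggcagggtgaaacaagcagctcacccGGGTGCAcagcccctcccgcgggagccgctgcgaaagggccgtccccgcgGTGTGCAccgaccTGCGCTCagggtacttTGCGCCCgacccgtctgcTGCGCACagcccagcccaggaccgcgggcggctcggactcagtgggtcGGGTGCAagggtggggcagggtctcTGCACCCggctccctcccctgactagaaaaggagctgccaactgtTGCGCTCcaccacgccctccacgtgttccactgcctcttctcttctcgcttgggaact
MT1X: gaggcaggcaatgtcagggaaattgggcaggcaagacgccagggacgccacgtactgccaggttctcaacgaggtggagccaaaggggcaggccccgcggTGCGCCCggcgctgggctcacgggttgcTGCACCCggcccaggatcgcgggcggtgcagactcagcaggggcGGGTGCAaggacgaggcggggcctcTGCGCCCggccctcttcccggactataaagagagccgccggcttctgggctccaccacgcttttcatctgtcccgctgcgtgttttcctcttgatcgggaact
The windows of MT1H and MT2A held 8 cores each and that of MT1X held 4. Of the 27305 promoters in the table, 29.3% held 1 or more and 8.59% held 2 or more, so a single core is common. At least 1 lay in 39.3% of the promoters of compared genes and in 35.4% of those of lower genes. MT2A, with 8 cores, was not called.

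Among genes that handle glucose and pyruvate, TXNIP was lower and SLC2A1, SLC2A14, ALDOA and ME1 were higher. TXNIP, an arrestin that restrains glucose uptake and binds thioredoxin, read 10.59 in E8, 9.34 in pyruvate, 9.75 in BMP4, 7.92 in BMP4 plus pyruvate and 11.33 at day 6, and was 3.54-fold lower in the pair. ARRDC4, the related arrestin, was near the limit of detection on both arrays (5.58 and 5.76). SLC2A1, the main glucose transporter, read 11.07 and 12.14 (2.11-fold), ALDOA, an aldolase, 11.59 and 12.77 (2.27-fold, with 0.56 on a second probe), and SLC2A14 9.04 and 10.37. SLC2A14 is a near copy of SLC2A3, which differed by 0.56, so its probe may read both. The glycolysis list had 3 of 22 detected members higher (13.6%, against 3.71% of all genes) and 0 lower (median 0.34). LDHA read 13.80 and 13.84, LDHB 13.70 and 13.47, and MPC1, a subunit of the mitochondrial pyruvate carrier, 9.78 and 10.63. ME1, the cytosolic malic enzyme that makes pyruvate, was the sole call among 18 genes of pyruvate and lactate, at 8.08 and 9.29 (2.32-fold).

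Some genes of the mTOR list and none of the citric acid cycle and AMPK lists were called, and of all genes 6.77% were. At that share lists of this size would hold few calls, so an absence of calls is not a result about these pathways. None of 23 detected genes of the citric acid cycle and its shuttles was called (median 0.19, range -0.70 to 0.86), and NDUFA9 alone of 39 respiratory chain genes, at 1.07. None of 20 detected AMPK genes was called. Their differences ran from -0.88 to 0.84 with a median of -0.12, and PRKAA1, a catalytic subunit, read 9.10 and 8.86. Of 30 detected mTOR genes 1 was higher (3.33%, against 3.71% of all genes) and 2 were lower (6.67%, against 3.05%). Without background correction 0 were higher and 0 lower. RRAGC, a RAG GTPase, was higher (1.02), and DEPTOR and CASTOR1, inhibitors of mTOR complexes, were lower by 1.05 and 1.13 in log2. DEPTOR read 7.29 and 6.24, and its second probe differed by -1.11. CASTOR1 has a near copy, CASTOR3P, that differed by -1.76, so its value is uncertain. The arrays read transcripts and not the phosphorylation through which AMPK and mTOR act.

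Of stress programmes, 4 of 21 hypoxia genes and 3 of 29 ATF4 genes (10.3%) were higher, against 3.71% of all genes. Part of these entered only through detection on the BMP4 plus pyruvate array. Among genes detected on both arrays, 2 of 18 hypoxia genes and 1 of 25 ATF4 genes were higher, against 2.28% of all such genes. SLC3A2, the heavy chain of amino acid transporters, read 11.39 and 12.46 (2.11-fold) with 1.96 on a second probe, and SLC7A11, its cystine-carrying partner, and CHAC1, a glutathione-degrading enzyme, were at least 1.10-fold and 1.71-fold higher. They were the calls of the ATF4 response, of which 23 genes were above 0 with a median of 0.45, while ASNS and PSAT1 differed by 0.46 and 0.45. The NRF2 list had 2 of 18 members higher and 0 lower (SLC7A11 and ME1), with a median of 0.54. Among its members detected on both arrays, 1 of 17 was higher. NQO1, a quinone reductase, read 9.70 in E8, 11.12 in pyruvate, 10.26 in BMP4 and 11.21 in BMP4 plus pyruvate and stayed just under the size rule in the pair. The hypoxia list also had 1 gene lower, and its median was 0.00. EPAS1, the hypoxia factor HIF-2-alpha, was at least 3.01-fold higher, whereas PGK1, BNIP3 and VEGFA differed by -0.03, 0.19 and -0.13. EGR1, an immediate early zinc finger factor, read 8.70 and 6.45 and was 4.75-fold lower, while FOS and JUN differed by -0.54 and 0.24.

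Cell cycle and housekeeping lists served as a reference for the size of these differences. They were not matched in level to the called genes, and calls were rarer among bright genes. MCM5 (1.18) and RRM2 (1.30) were the calls among 41 detected replication and cell cycle genes, whose median was 0.01. None of 29 ribosomal protein genes was called (range -0.62 to 0.54), nor any of 12 housekeeping genes. Altogether the 56 lists held 912 detected genes, of which 110 were called (12.1%, against 6.77% of all genes), and 14 lists had no call. As the lists were chosen with earlier results of these data known, these shares are a description.

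**Figure D5:**
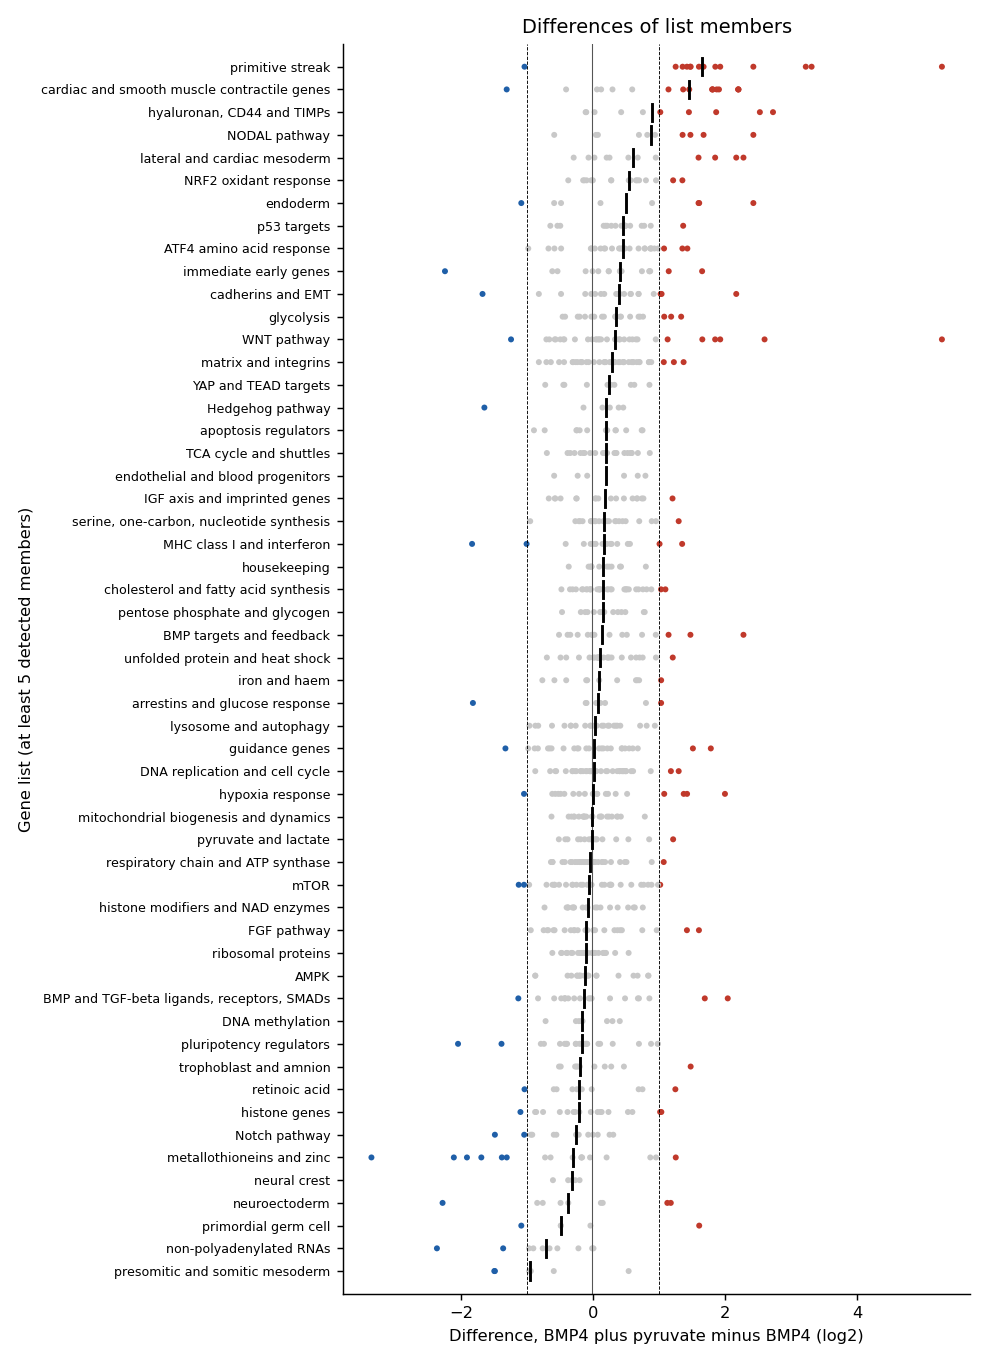
Log2 difference of BMP4 plus pyruvate minus BMP4 at day 2 (horizontal axis) for the detected members of gene lists (vertical axis), 1 point per gene with the list's median marked; points may overlap. The primitive streak list (median 1.65) and the contractile list (1.46) lie to the right, and ribosomal protein genes lie between -0.62 and 0.54.

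Of small RNAs without a poly(A) tail, some were lower on the BMP4 plus pyruvate array and most were not called. RNU1-3, a U1 spliceosomal RNA, read 9.65, 8.74, 9.53 and 7.16 on the E8, pyruvate, BMP4 and BMP4 plus pyruvate arrays, 5.17-fold lower in the pair. Of 10 detected snRNA genes 5 were lower and 0 higher, with a median of -1.02, and of 80 snoRNA genes 8 were lower and 0 higher, with a median of -0.16. Of all genes 3.05% were lower and 3.71% higher. Of 23 miRNA genes 4 were higher and 1 lower (median 0.03). The list of spliceosomal, 7S and other such RNAs had 2 of 10 lower and 0 higher, with a median of -0.71. SCARNA8, a small Cajal body RNA, read 8.72 and 6.65 and was 4.21-fold lower, and RNA18SN5, an 18S ribosomal RNA, read 10.74 and 8.99. U1 genes are near-identical copies, so their probes cannot be told apart. Among 10742 protein-coding genes, 393 were higher and 307 lower.

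Genes measured by several probes gave a narrower set. Of 2920 genes with 2 or more detected probes, every probe was higher by 1 or more in 36 (1.23%) and lower in 13 (0.445%). The 36 included TBXT, GAD1, DACT1, SPP1, CER1, HAS2, WLS, MYL9, TAGLN, CAV1, FST, FGF8, VIM, SLC3A2, PCDH10, a protocadherin (8.45 and 9.92), and ALDH3A2, a fatty aldehyde dehydrogenase (9.91 and 10.98). The 13 included SOX2, DEPTOR, PCDH18, a protocadherin (10.04 and 8.08), IDO1, which degrades tryptophan (6.94, and 5.09 undetected, at least 2.40-fold lower), AASS, of lysine breakdown (9.57 and 8.50), and ALDH6A1, of valine breakdown (2.06-fold lower).

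Other large differences downward were of mixed function. BNC2, a zinc finger protein, read 9.23, 9.22, 9.12 and 6.99 on the day-2 arrays of E8, pyruvate, BMP4 and BMP4 plus pyruvate, 4.38-fold lower in the pair and at about 1 level on the other 3. BST2, the antiviral protein tetherin, read 7.81 and 5.97 (3.57-fold lower), and FREM2, a basement membrane protein, 7.86 and 6.03 (3.57-fold lower). LPIN1, a phosphatidate phosphatase, read 8.05 and 6.36. LPL, lipoprotein lipase, was detected with BMP4 alone of the 5 arrays (7.66, against 5.48 with BMP4 plus pyruvate) and was at least 3.98-fold lower. COL9A1, a collagen IX chain, read 6.91 and 4.89, undetected on the second, at least 2.36-fold lower.

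Arrays outside the pair gave comparisons that share no array with it. At day 6 of BMP4 plus pyruvate against E8, 12.4% of genes were higher and 12.3% lower. Of the 417 genes higher in the pair, 125 were higher at day 6 and 39 (9.35%) lower, and the 125 were 8.37% of all genes higher at day 6. Of the 343 lower genes, 119 (34.7%) were lower at day 6 and 27 (7.87%) higher, and the 119 were 8.07% of all genes lower there. Genes not called in the pair were higher at day 6 in 8.81% and lower in 11.1%. Pyruvate against E8 at day 2 had 1.04% of genes higher and 1.32% lower. Of the 417 genes, 18 (4.32%) were higher there too, and of the 343 genes 29 (8.45%) were lower, or 19.1% of those lower with pyruvate alone. Only 308 of the 417 and 314 of the 343 were compared there, so these shares and those of all genes rest on unlike sets. TIMP4, for example, read 6.44 in E8 and 8.83 in pyruvate, and 6.34 and 7.79 in the pair.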

How the data were processed

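Total RNA of H1 cultures was measured on 5 Illumina BeadChips, 1 per condition, and groups were taken from the treatment in each sample's labels. The deposited intensity values are 1 summarized, not normalized signal per probe and array, and a detection p-value stands beside each, per the file headers. The deposited log2 values of the same arrays, whose making is not stated, were used only as an alternative. The scanner software was not given in the sources used here, and the files name no genome build.

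Intensities of 47296 probes were background-corrected with limma 3.58.1 in R 4.3.3 (neqc, from the detection p-values, offset 16), quantile normalized over the 5 arrays and put on a log2 scale. Quantile normalization removes any difference in total RNA per cell, and the offset shrinks differences of dim probes. The arrays detected 16661 to 18982 probes each, 35.2% to 40.1%. Their number limits the precision.

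Probes were named from the platform annotation: 30105 had 1 gene symbol, 8 several and 17183 none. Of 20041 genes, 6689 had over 1 probe, and the probe with the highest mean over the 5 arrays was used, with the others given where they disagree. Genes named in the text are the 25 largest differences in each direction among genes detected on both arrays, the 15 largest bounds in each direction, genes whose detected probes all pass the size rule, genes with opposite calls for pyruvate without and with BMP4, and members of 56 lists with 1258 genes, 79 of them without a named probe. The members and lists were chosen with earlier results of these data known. The normalization was tested on simulated data. Columns of per-sample values not mapped to a sample numbered 0. Promoters are those of RefSeq for GRCh38.p14, matched by Entrez gene identifier for 9103 of 11230 genes.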

Additional observations from a re-analysis of the deposited data

Results flagged for a closer look

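For 13 genes the sign of the pyruvate difference was opposite with and without BMP4, past the size rule both times. Each side is 1 array, so the difference between the effects was not tested. B4GALT1, a galactosyltransferase, and FCF1, of ribosome assembly, were the genes of these detected on all 4 arrays of day 2. B4GALT1 differed by 1.38 with BMP4 (7.05 and 8.43) and by -1.02 without it. FCF1 differed by 1.37 with BMP4 (7.07 and 8.45) and by -2.06 without it (8.71 and 6.65). For both genes the E8 and the BMP4 plus pyruvate arrays were the brighter ones. These arrays also had the higher median raw intensities of day 2, 165 and 164, against 153 for pyruvate and 146 for BMP4. The part of this in the opposite signs was not tested.

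The others were undetected on 1 or 2 of the 4 arrays. With BMP4, the difference was 1.25 for AP5B1, 1.74 for DCP1B, 1.18 for MIR23B, 1.01 for MYCL, 1.01 for RBM24 and 1.30 for TMEM191B, and without BMP4 each of them was lower with pyruvate. With BMP4, the difference was -1.01 for DGKB, -1.08 for DNM3, -1.01 for SPRED3, -1.33 for VWA3B and -1.01 for ZNF596, and without BMP4 each of them was higher with pyruvate.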

How the results depend on the processing

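Counts of higher and lower genes were 417 and 343. They were 79 and 52 without background correction, 186 and 162 with an offset of 50, 255 and 206 on the deposited log2 values, and 82 and 58 at a size of 1.5. Alignment at the 75th percentile of all probes, a setting chosen after the data were seen, gave 256 and 503, so that 33.7% of calls were higher in place of 54.9%, and all genes shifted to a median of -0.14. In 5 other settings (75th percentile over detected probes, quantiles over the pair, cyclic loess, a detection limit of 0.05 and the mean of detected probes) and with no detection filter, higher genes numbered 403 to 424 and lower genes 312 to 363. Streak genes that were higher numbered 14, with 7 without background correction, 9 at a size of 1.5 and 12 to 14 elsewhere. Background correction stretches dim values and the offset shrinks them by construction. The cause of the other shifts was not tested.

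Over 10 settings all 1970 values of the 197 called named genes kept their sign, and 178 of them moved by over 0.5. Changing or dropping the detection limit left the difference of each of these genes as it was, so those values could neither reverse nor move. The other settings reprocessed the same arrays on which the genes had been called. The shared sign therefore describes the processing and says nothing of how the differences would repeat. Over the settings the median ran from 0.86 to 1.65 for the streak list, 0.59 to 1.53 for the contractile, -0.99 to -0.17 for the presomitic, 0.04 to 0.38 for the glycolysis and 0.17 to 0.50 for the ATF4 list, and reached -0.002 for the BMP target list. No paired analysis was possible because each group has 1 array, so no replicate was left out. Detection limits what can be said of dim genes: 814 and 302 genes were measured on 1 array of the pair.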

Other observations

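Signalling genes outside the groups above differed singly. EPHA2, an ephrin receptor, read 8.07 with BMP4 and 9.58 with BMP4 plus pyruvate (2.85-fold higher), and NTN1, the guidance factor netrin, 5.99 and 7.77 (3.44-fold higher). EFNA1, a ligand of EPHA2, read 9.55 and 8.22 (2.52-fold lower), but a second probe differed by 0.47, so its direction is uncertain. Among other pathways, GAS1, a Hedgehog co-receptor, read 8.59 and 6.94 (3.14-fold lower), with -0.98 on a second probe. EPHA2, NTN1 and EFNA1 were the calls among 26 detected guidance genes, whose median was 0.01, and of all genes 6.77% were called. HES6, of the HES family, read 10.36 and 9.31. With DLL1 it was 1 of 2 lower genes among 13 of the Notch list (15.4%, against 3.05% of all genes). RDH10, which makes retinal for retinoic acid, read 8.01 and 9.25 (2.37-fold higher).

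HLA-F, a class I antigen, read 8.01 and 9.36, whereas a second probe differed by -0.63. CLDN3 and CLDN6, claudins of tight junctions, went opposite ways, CLDN3 at 7.91 and 6.23 and CLDN6 at 9.97 and 10.99. KRT16P2, a near copy of KRT16, read 9.47 and 11.09, and KRT16 was undetected with BMP4 and at least 1.98-fold higher, so these keratin probes cannot be told apart.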
